A study of Mus musculus with 6 samples.

Results

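The ion channel and capacitation signalling genes of mouse sperm were compared between mature sperm and testes. The group held 41 genes, chosen by name, of the 14455 genes with a RefSeq mRNA row in at least 1 of the 6 samples, and 33 of the 41 had such a row. RNA came from 4 samples of mature sperm and 2 samples of testes, all from C57BL/6 mice (an inbred laboratory strain) aged 3 to 5 months per the labels, and the labels of both groups name no mutation and no treatment. The study's methods name the substrain C57BL/6J, male, and give an age range in weeks that begins and ends earlier than that of the labels. Sperm were collected from the caudal epididymis and vas deferens, each sperm sample was a pool of several mice, and the testes samples were made from the testes of the same mice. Total RNA was depleted of ribosomal RNA and sequenced in strand-specific libraries, so fragmented transcripts without a poly(A) tail could be read as well. Sperm replicate 1, which the study left out after its correlation check, is shown but does not enter the comparisons, which set sperm replicates 2 to 4 against both testes samples.

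Sperm leaving the testis cannot yet fertilise. In the female tract they capacitate: bicarbonate and Ca2+ activate a soluble adenylyl cyclase, cAMP activates protein kinase A (PKA), tyrosine phosphorylation rises, the cell becomes alkaline and hyperpolarised, and the sperm-specific Ca2+ channel CatSper opens and changes the beat of the tail. The proteins of this machinery are made while germ cells mature in the testis, and the nucleus of mature sperm is compacted and largely silent, so the transcripts read in sperm are generally regarded as carried over from earlier stages.

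Counts were low. The estimated counts assigned to RefSeq mRNA were 42390 in sperm replicate 1, 100027 in replicate 2, 33511 in replicate 3 and 54337 in replicate 4, against 322625 and 314273 in the testes samples. They made up 9.14 to 12.1% of all counts of a sample, the rest lying in long non-coding and newly assembled transcripts. A level of 3 counts, taken as the floor, was worth 29.99 to 89.5 CPM (counts scaled to a RefSeq total of 1000000) in a sperm sample and 9.30 and 9.55 CPM in testes. A member at 0 in sperm was therefore not detected at this depth, which does not mean that it was absent. Because RNA was extracted in bulk, fewer cells of a type and less RNA per cell cannot be told apart, and sperm and testes came from the same mice, whose pools the labels do not match to each other. The study calls the samples of each group biological replicates, and p-values measure the spread between these pools, not between single animals.

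Markers of other cell types were read in the same samples. Of 10 markers of spermatogonia and spermatocytes 7 had a row, and all 7 were at 0 in each sperm sample, while their summed counts were 30 and 45 in testes. Summed late spermatid markers ran from 1274 to 2632 CPM in sperm and were 2794 and 2038 CPM in testes. Among them Prm2, which packs sperm DNA, had 45, 148, 49 and 130 counts in sperm replicates 1 to 4, whereas Prm1 had 6, 2, 0 and 2 and Odf1, a tail fibre gene, had 0 in all 4. Of 7 Leydig cell markers, 5 were at 0 in every sperm sample. Star, which carries cholesterol into mitochondria, had 40 counts in sperm replicate 3. The Leydig sum was 1194 CPM in that replicate, all of it from Star. It was 0 to 170 CPM in the other sperm samples and 544 to 580 CPM in testes. Of 10 epididymal epithelium markers 6 had a row. They summed to 92.0 to 572 CPM in sperm, highest in replicate 3, and to 165 and 194 CPM in testes. In sperm replicate 3 Adam28 gave 303 CPM, Epcam 149 and Krt8 119, while Krt18, Krt19 and Cd52 were at 0. Of 8 Sertoli cell markers, 6 were at 0 in every sperm sample. Of leukocyte markers 4 of 8 had a row and summed to 0 to 29.99 CPM in sperm, and of erythrocyte markers 2 of 7 had a row and summed to 0 to 10.0 CPM. The part of such cells in the values below was not tested.

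Values by sample are given from here on in the order of sperm replicates 1 to 4, then testes replicates 1 and 2. Together the members held 0.238, 0.243, 0.218 and 0.128% of RefSeq counts in sperm against 0.407 and 0.444% in testes. All sperm samples lay below both testes samples. The sperm mean was 0.196% ± 0.0607 (SD, n = 3) and the testes mean 0.426% ± 0.0259 (SD, n = 2), so their ratio was 0.461. Sperm minus testes, the means differed by -0.229 percentage points, and the gene Hvcn1 alone by -0.189. Without Hvcn1 the remaining 32 listed members held 0.144, 0.185, 0.0955 and 0.0909% in sperm and 0.150 and 0.178% in testes, with overlapping groups and a ratio of 0.757.

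**Figure D1:**
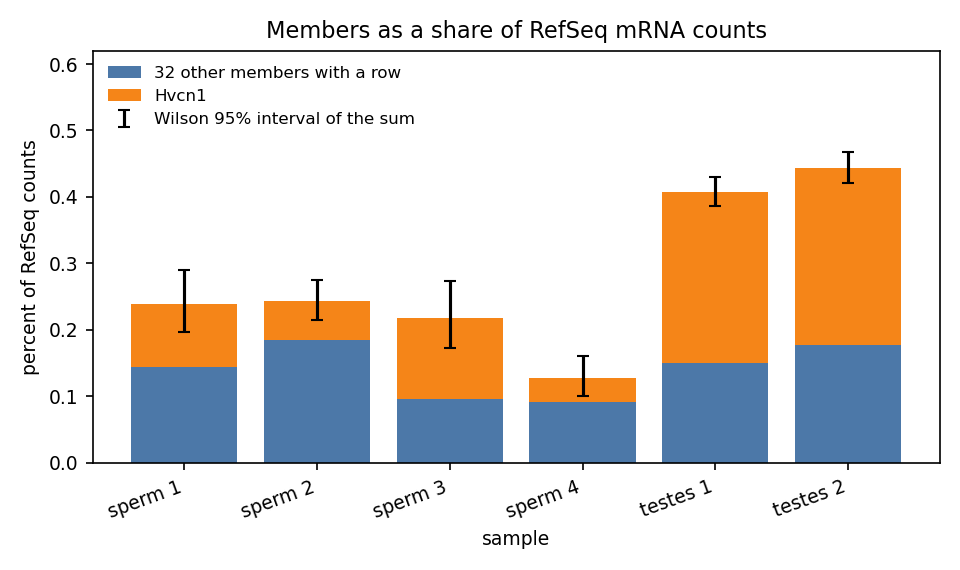
Summed estimated counts of the members as a percentage of RefSeq mRNA counts in each sample, with Hvcn1 stacked on the 32 other listed members; error bars are Wilson 95% intervals of the sum and cover counting error only. Testes bars reach 0.407 and 0.444%, above all 4 sperm bars, while the lower stack overlaps between the groups.

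A test across genes was run on 6828 genes with at least 10 counts summed over the 5 samples. It was edgeR's quasi-likelihood test with Benjamini-Hochberg adjustment, and a gene was called when the adjusted p was below 0.05 and the fold exceeded 2. Of the members 25 were tested and 16 were not, 8 of them for want of a row and 8 for a summed count of at most 9. Hvcn1 alone was called lower in sperm, which is 4% of the members tested, and 3.65% of all tested genes were called lower. No member was called higher, against 3.54% of all tested genes. At an unadjusted p below 0.05, 11 members (44%) passed, 10 of them lower in sperm, and 39.6% of all tested genes passed. On the log2 scale the median fold change of the 25 members was -0.90 and that of all tested genes -1.19, or -0.46 and -0.54 with genes at 0 in sperm set to the fold that the floor allows. DESeq2 called 3 members lower, or 21.4% of the 14 members it gave an adjusted p, against 21.1% of all genes with one. By limma on log2(FPKM + 1) 7 members, or 28%, were called lower, against 22.4% of all tested genes. Neither tool called a member higher. Of all calls 50.7% were lower in sperm with RefSeq totals as the scale, 62.8% with the total of all transcripts, 79.6% with TMM factors and 82.1% with DESeq2.

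In 12 of the 25 members, or 48.0%, all 3 sperm samples lay below both testes samples, and 45.0% of all tested genes did so. In 0 of the 25 members all sperm samples lay above both testes samples, against 7.72% of the tested genes. Of the tested members 8, or 32%, were at 0 in sperm replicates 2 to 4, against 22.5% of the tested genes. These 8 were Efcab9, Lrrc52, Prkar1a, Pde4a, Calm3, Ppp3r2, Plcz1 and Plcd4.

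At least 1 count was assigned to 6, 18, 5 and 9 members in sperm and to 33 and 28 in testes. Across the 6 samples this was also the order of their RefSeq counts. When every sample was thinned to 33512 RefSeq counts, the total of sperm replicate 3 with gene counts rounded, the means over 20 draws were 6.00, 14.4, 5.00 and 8.80 in sperm and 19.0 and 19.1 in testes. The ratio of sperm to testes means rose from 0.350 to 0.494 with thinning, and for all RefSeq genes it rose from 0.325 to 0.545. Of the 41 members, 3 had a count in each of sperm replicates 2 to 4 (Hvcn1, Gsk3a and Prkar1b), 7 in 2 of them, 9 in 1 and 14 in none, and the remaining 8 had no row. Of the 9 members read in 1 of them, 8 had their counts in replicate 2, the deepest. Hvcn1 and Gsk3a were the members read in all 4 sperm samples.

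**Figure D2:**
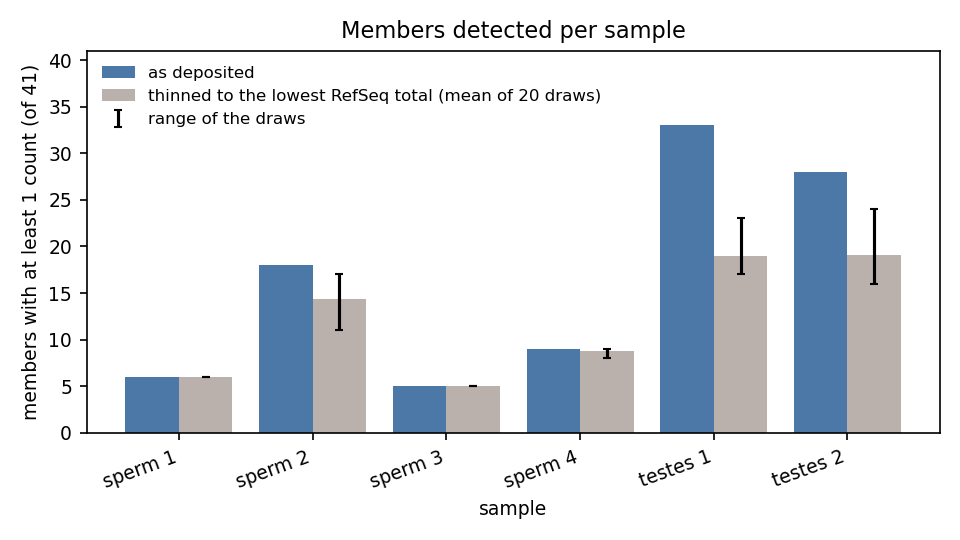
Number of the 41 members with at least 1 count in each sample, as deposited and after thinning to 33512 RefSeq counts (mean of 20 draws, with the range of the draws as error bars). Thinning lowers the testes bars from 33 and 28 to 19.0 and 19.1, and sperm replicate 2 keeps more members than the other sperm samples.

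CatSper is built from 4 pore-forming proteins, Catsper1 to Catsper4, and from auxiliary subunits, and loss of a pore subunit makes male mice infertile. Of the 9 CatSper genes in the group, Catsper1, Catsper4 and Catsperb had no row in any sample. The 6 others held 0, 31, 0 and 13 counts in sperm against 27 and 32 in testes.

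Catsper2 (chr2:121391633-121414598, GRCm38), a pore subunit, carried most of the CatSper counts in sperm. It had 0, 26, 0 and 13 counts in sperm against 6 and 12 in testes. That is 259.9 and 239 CPM in replicates 2 and 4 and nothing in replicates 1 and 3, against 18.6 and 38.2 CPM in testes, so both sperm samples with a count lay above testes and the other two below. The sperm mean was 166 CPM ± 144 (SD, n = 3) and the testes mean 28.4 CPM ± 13.8 (SD, n = 2). At a log2 fold change of 2.57 with an SE of 1.44 it was not called by edgeR (adjusted p = 0.171). Without sperm replicate 3, the compared sample with no count, it was 3.11 and was called by edgeR (adjusted p = 0.0029). No other setting tried called it. The adjusted p was 0.383 by edgeR with TMM factors, 0.365 by edgeR with all 4 sperm samples and 0.399 by DESeq2. The upper limit that a count of 0 allows was 89.5 CPM in replicate 3 and 70.8 CPM in replicate 1, both below the level in replicates 2 and 4.

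The other CatSper genes were near the limit of detection. Catsperd, an auxiliary transmembrane subunit, had its 4 sperm counts in replicate 2 and had 7 and 9 counts in testes. Efcab9, which encodes the EF-hand partner that tunes the channel to Ca2+ and pH, was at 0 in all 4 sperm samples and had 8 and 5 counts in testes. Its level in sperm was at least 1.28-fold lower than in testes, taking 3 counts over the 3 sperm samples as the floor. This bound, like those given below, covers counting error in sperm only and not the spread between replicates. The edgeR test gave Efcab9 an adjusted p of 0.0903, so it was not called. Catsper3 had 1 and 2 counts in testes and none in sperm. Catsperg2 had 3 and 4 counts in testes and none in sperm, and its near-identical copy Catsperg1 had 1 count in sperm replicate 2 and 2 and 0 in testes. Reads shared by Catsperg1 and Catsperg2 could have been split between them, so these values are uncertain.

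Promoters were available from RefSeq for the group in 58 windows of 300 bases, running from 250 before to 50 after a transcription start, covering 33 of the 41 members. Hvcn1 had no window. They were searched for TGACG on both strands, the core of the cAMP response element TGACGTCA, to which the PKA target CREB and its germ cell relative CREM bind. This motif was chosen after the counts had been seen. It stood in 17 of the 58 windows, or 29.3%, and in 20.8% of all 32851 mouse windows. By gene it stood in 15 of 33 members, or 45.5%, against 23.0% of genes, and members differ from other genes in how many windows they have. The full 8-base element stood in windows of Prkar1a alone. Of the members with a window, 6 of the 15 read in sperm replicates 2 to 4 held the core, and 9 of the 18 not read there held it, Prkar1a among them. Windows of 3 genes are printed with the core in capitals, as an example of each case in genes the values turn on: Catsper2 and Gsk3a hold a site and Lrrc52 holds none. They are from GRCm38.p6 and lie on the minus strand at chr2:121413743-121414042, chr7:25237802-25238101 and chr1:167466731-167467030.
Catsper2: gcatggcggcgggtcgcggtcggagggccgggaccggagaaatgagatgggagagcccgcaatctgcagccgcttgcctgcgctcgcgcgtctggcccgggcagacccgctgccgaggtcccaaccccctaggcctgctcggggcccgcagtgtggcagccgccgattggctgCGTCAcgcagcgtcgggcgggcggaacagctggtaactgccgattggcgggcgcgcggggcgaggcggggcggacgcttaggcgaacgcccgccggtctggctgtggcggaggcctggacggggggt
Gsk3a: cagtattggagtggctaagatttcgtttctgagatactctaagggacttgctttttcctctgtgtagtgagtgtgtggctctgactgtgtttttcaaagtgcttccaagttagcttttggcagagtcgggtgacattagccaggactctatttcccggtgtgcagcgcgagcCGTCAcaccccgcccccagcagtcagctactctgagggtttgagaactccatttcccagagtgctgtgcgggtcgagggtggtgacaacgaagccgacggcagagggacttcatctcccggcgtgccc
Lrrc52: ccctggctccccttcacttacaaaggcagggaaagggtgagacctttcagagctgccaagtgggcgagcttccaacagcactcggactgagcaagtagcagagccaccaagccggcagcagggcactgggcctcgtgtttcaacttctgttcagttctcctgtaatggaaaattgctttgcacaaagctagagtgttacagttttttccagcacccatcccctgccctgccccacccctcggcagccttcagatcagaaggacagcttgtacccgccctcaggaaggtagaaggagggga
In Catsper2 the site begins at position -77 from the start and in Gsk3a at -78, both on the strand opposite to the gene. A match is a description of these letters and no evidence that a factor binds.

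Hvcn1 (chr5:122206805-122242297, GRCm38) encodes the voltage-gated proton channel, which lets H+ leave the cell and raises its pH. It had the most counts of all members in every sample. It had 40, 58, 41 and 20 counts in sperm against 831 and 836 in testes. In CPM these were 944, 579.8, 1223 and 368 in sperm and 2576 and 2660.1 in testes. Each sperm sample was below both testes samples, and the sperm samples were spread more widely than the testes samples. The sperm mean was 724 CPM ± 446 (SD, n = 3) and the testes mean 2618 CPM ± 59.7 (SD, n = 2), so their ratio was 0.276. The log2 fold change was -1.87 (SE 0.52) and was called (edgeR, adjusted p = 0.0094). Hvcn1 held 23.8 to 56.2% of all member counts in the 4 sperm samples and 63.3 and 59.9% in testes. Per length, its mean in testes was 117 FPKM (fragments scaled for transcript length and for the mapped fragments of the sample), rank 48 of the 14455 RefSeq genes, and in sperm 26.2 FPKM, rank 196.

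The call for Hvcn1 depended on the setting, the direction did not. It was kept with the total of all transcripts as the scale, with DESeq2, with all 4 sperm samples, with a stricter filter on low counts, without sperm replicate 3 and with limma at either pseudocount, at log2 fold changes of -1.76 to -3.02. Settings that ended it included TMM factors (-2.84, adjusted p = 0.0548), no filter (-1.87, adjusted p = 0.317), and leaving out sperm replicate 2 (-1.73, adjusted p = 0.164), sperm replicate 4 (-1.56, adjusted p = 0.117), testes replicate 1 (-1.89, adjusted p = 0.144) or testes replicate 2 (-1.84, adjusted p = 0.209). Sperm replicate 3, in which Hvcn1 was highest, was also the sample with the high Star count and epididymal marker sum given above. Hvcn1 was lower in sperm with and without that replicate.

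**Figure D3:**
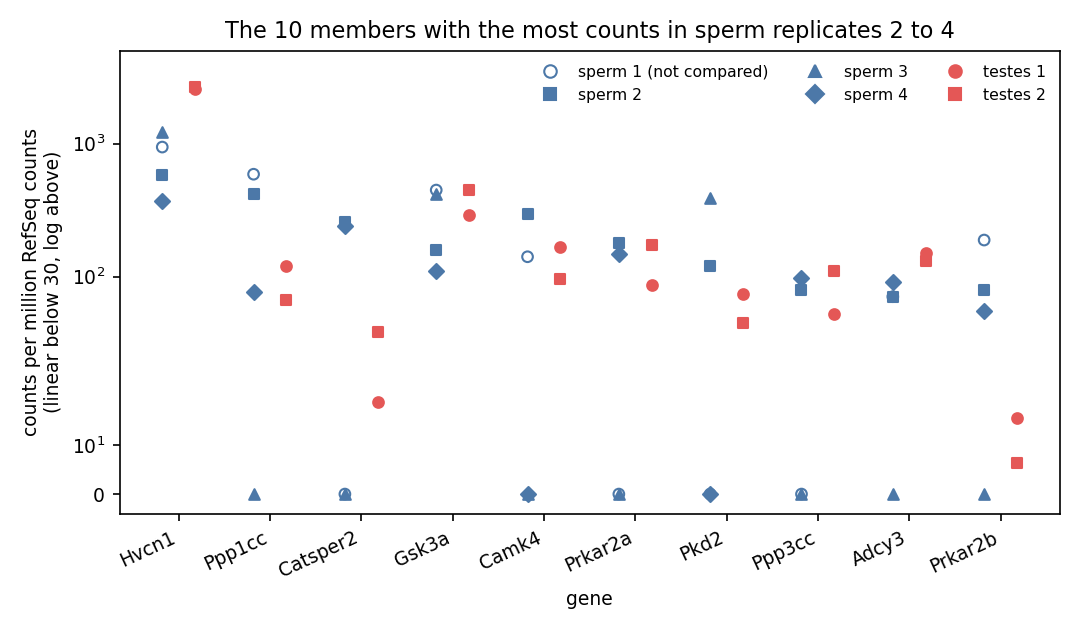
Level in CPM (linear below 30, log scale above) of the 10 members with the most counts in sperm replicates 2 to 4; each point is 1 sample and the open circle is sperm replicate 1, which was not compared. Hvcn1 lies lower in all sperm samples than in testes, and in 8 of the others the groups overlap, while Adcy3 lies lower in the sperm samples.

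Lrrc52 (chr1:167445675-167466780, GRCm38) encodes the auxiliary subunit that lets the sperm K+ channel Slo3 open at physiological voltages, and Kcnu1 encodes Slo3 itself. Lrrc52 was at 0 in all 4 sperm samples and had 28 and 24 counts in testes, which is 86.8 and 76.4 CPM. By counting error alone it was at least 5.11-fold lower in sperm, with the floor of 3 counts over the 3 samples at 16.0 CPM. Its adjusted p in the main edgeR fit was 0.0709, the lowest of the members not called. It was called by DESeq2 (adjusted p = 0.0174), by limma on log2(FPKM + 1) (0.0098), and by edgeR with all 4 sperm samples (0.0323) and without sperm replicate 3 (0.0262). In edgeR it was not called with TMM factors (adjusted p = 0.0548), the total of all transcripts (0.0539) or no filter (0.317). Leaving out sperm replicate 2 (0.166) or 4 (0.145) did not give a call in edgeR either. Without testes replicate 1 or 2, which leaves a single testes sample, the log2 fold change of Lrrc52 was -6.28 or -6.49. Sperm was at 0 there too, so the size of these folds is not measured beyond the bound given above. The channel gene Kcnu1 had 1 count, in testes replicate 1, and no count in sperm.

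Pkd2 encodes polycystin-2, a cation channel of the TRP superfamily, and had 0, 12, 13 and 0 counts in sperm against 24 and 14 in testes. Its sperm mean was 169 CPM ± 199 (SD, n = 3) and the testes mean 59.5 CPM ± 21.1 (SD, n = 2), and the groups overlapped (log2 fold change 1.44, SE 1.36, adjusted p = 0.451). Trpc1, a cation channel subunit, had 2 counts in testes replicate 1 alone, and Trpc2 had no row. Atp1a4, the Na+ pump isoform of male germ cells, had 1 count in sperm replicate 2, none in the others, and 10 and 9 counts in testes (adjusted p = 0.241). The plasma membrane Ca2+ pump gene Atp2b4 had no row.

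**Figure D4:**
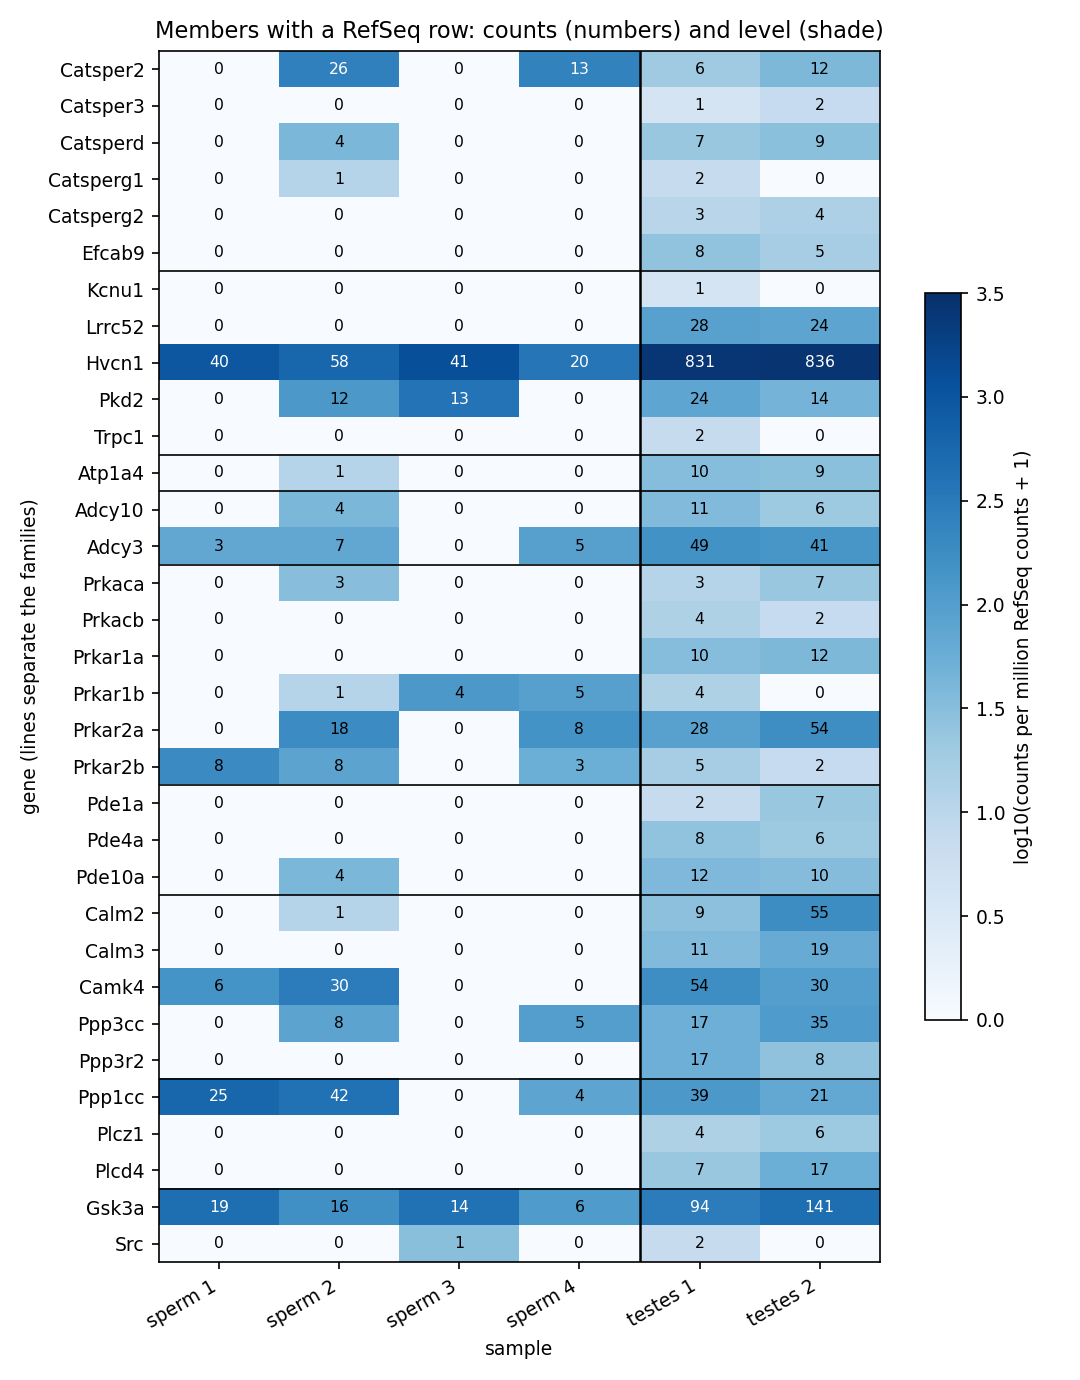
Estimated counts, rounded to whole numbers, of the 33 members with a RefSeq row (rows, grouped by family) in the 6 samples (columns), shaded by log10 of CPM plus 1. Testes columns are filled in nearly every row, whereas sperm columns hold 5 to 18 filled rows. Hvcn1, with 20 to 58 counts, is the highest in each sperm column.

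Cyclic AMP is made in sperm by Adcy10, the soluble adenylyl cyclase that bicarbonate activates. Adcy10 had its 4 sperm counts in replicate 2 and had 11 and 6 counts in testes (adjusted p = 0.806). Adcy3, a membrane-bound cyclase known from olfactory neurons, had 3, 7, 0 and 5 counts in sperm against 49 and 41 in testes. Its sperm mean was 54.0 CPM ± 48.0 (SD, n = 3) and the testes mean 141 CPM ± 15.1 (SD, n = 2). All sperm samples lay below testes, but at -1.28 on the log2 scale (SE 1.37) the difference did not pass the test (adjusted p = 0.508).

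PKA is a pair of catalytic subunits held inactive by a pair of regulatory ones. The 6 PKA genes together held 0.0189, 0.0300, 0.0119 and 0.0294% of RefSeq counts in sperm against 0.0168 and 0.0245% in testes, so the groups overlapped. Its regulatory subunits also dock PKA to anchoring proteins of the tail. Prkar2a, type II alpha, had 0, 18, 0 and 8 counts in sperm against 28 and 54 in testes (log2 difference -0.17, SE 1.27, adjusted p = 0.937). Prkar2b, type II beta, had 8, 8, 0 and 3 counts in sperm against 5 and 2 in testes (2.13, SE 1.43, adjusted p = 0.268), and 3 of the 4 sperm samples lay above both testes samples in CPM.

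Prkar1b, type I beta, had 0, 1, 4 and 5 counts in sperm against 4 and 0 in testes. It had the largest positive fold change of the tested members (3.30, SE 1.61, adjusted p = 0.108), and this rests on 10 counts over 3 sperm samples. Prkar1a, type I alpha, was at 0 in all sperm samples and had 10 and 12 counts in testes. By the floor it was at least 2.16-fold lower, but it was not called (edgeR, adjusted p = 0.0746). The catalytic genes Prkaca and Prkacb had 3 and 0 counts in sperm, all in replicate 2, and 3.31 and 7 counts and 4 and 2 counts in testes.

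Phosphodiesterases break down cyclic nucleotides. Of the 5 member genes, Pde4d and Pde11a had no row. Pde10a had 4 counts in sperm replicate 2 and 12 and 10.4 in testes (adjusted p = 0.656), and Pde1a and Pde4a were at 0 in all sperm samples, with 2 and 7 and with 8 and 6 counts in testes.

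Ca2+ acts in sperm through calmodulin, its kinases and the phosphatase calcineurin. Camk4, a nuclear calmodulin kinase of spermatids, had 5.99, 29.7, 0 and 0 counts in sperm against 54.4 and 30.3 in testes, with overlapping groups (log2 fold change -0.25, SE 1.27, adjusted p = 0.900). The calmodulin genes Calm2 and Calm3 encode the same protein from similar coding sequences, so their reads could have been split. Calm2 had 1 count in sperm replicate 2, 0 in the others, and 9 and 55 in testes (adjusted p = 0.0893), and DESeq2 called it (adjusted p = 0.0297). Calm3 was at 0 in all sperm samples and had 11 and 19 counts in testes. By the floor it was at least 2.95-fold lower, but it was not called (edgeR, adjusted p = 0.0746).

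Calcineurin in sperm pairs the catalytic Ppp3cc with the testis-specific regulatory Ppp3r2. Ppp3cc had 0, 8, 0 and 5.27 counts in sperm against 17 and 35 in testes, with overlapping groups (-0.42, SE 1.44, adjusted p = 0.855). Ppp3r2 was at 0 in all sperm samples and had 17 and 8 counts in testes. By the floor it was at least 2.46-fold lower, but it was not called (edgeR, adjusted p = 0.0746).

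The 2 RefSeq transcripts of Ppp3cc were split by group. All counts of sperm were assigned to NM_001304992 (8 and 5.27 counts in replicates 2 and 4), and all counts of testes to NM_008915 (17 and 35 counts). In a fit over 7191 transcripts their log2 fold changes were 6.34 (adjusted p = 0.135) and -6.77 (adjusted p = 0.142), and neither was called. Reads that both transcripts share cannot be told apart in these tables, so the split is uncertain. In that fit 0 of the 26 member transcripts tested were called by edgeR, against 2.39% of all transcripts. At an unadjusted p below 0.05, 11 of the 26 (42.3%) passed, against 32.1% of all transcripts. With TMM factors 1 was called, the single transcript of Hvcn1 (-3.05). In the main transcript fit the Hvcn1 transcript had the same fold change as the gene and an adjusted p of 0.118.

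Ppp1cc encodes protein phosphatase 1 gamma, whose testis form keeps immature sperm immotile. It had 25, 41.7, 0 and 4.14 counts in sperm against 39.0 and 21.1 in testes. Its sperm mean was 164 CPM ± 222 (SD, n = 3) and the testes mean 93.9 CPM ± 38.1 (SD, n = 2), with a log2 difference of 0.89 (SE 1.24, adjusted p = 0.619) that turned to -0.02 with DESeq2. Plcz1, the phospholipase that starts Ca2+ waves in the egg, and Plcd4, which acts in the acrosome reaction, were at 0 in all sperm samples. They had 4 and 6 and 7 and 17 counts in testes, with adjusted p of 0.108 and 0.0746.

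Gsk3a, the glycogen synthase kinase isoform that sperm motility depends on, was the second member by level per length in both groups, at 9.78 FPKM ± 6.51 (SD, n = 3) for sperm, against 19.6 FPKM ± 6.82 (SD, n = 2) for testes. It had 19, 16, 14 and 6 counts in sperm against 94 and 141 in testes. The sperm mean was 229 CPM ± 165 (SD, n = 3) and the testes mean 370.0 CPM ± 111 (SD, n = 2) (log2 fold change -0.73, SE 0.95, adjusted p = 0.593). Below Gsk3a the order by FPKM differed: in sperm Catsper2 (7.54), Ppp1cc (6.73), Ppp3cc (3.19), Pkd2 (3.01), Prkar1b (2.79) and Prkar2a (2.71) followed, with SDs from 2.11 to 8.83, and in testes Calm2 (10.4), Lrrc52 (8.70), Ppp3cc (4.87), Ppp1cc (4.63), Prkar2a (3.8) and Adcy3 (3.8) did. Neighbours in each order differed by less than the larger of their SDs, except Hvcn1 and Gsk3a in both groups and Lrrc52 and Ppp3cc in testes. Src, the tyrosine kinase, had 1 count in sperm replicate 3 and 2 in testes replicate 1, and the tyrosine kinase gene Fer had no row.

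Genes of the same or related pathways that were not members were read for comparison, in 5 lists of 104 genes in all. Of these 87 had a row, 48 were tested, 1 was called lower in sperm and 1 higher. By list, 1 of 10 tested genes of other sperm ion transport was lower. Of the 6 tested genes in a list of other kinases, which held capacitation kinases and testis-specific serine kinases, 1 was higher. None of the 10 tested PKA anchoring genes, 8 other cyclic nucleotide enzymes or 14 other Ca2+ and phosphatase genes was called. Of the 48 genes, all sperm samples lay below both testes samples in 22 and above them in 3, and 9 were at 0 in sperm. Among all tested genes these shares were 45.0%, 7.72% and 22.5%, while 3.65% were called lower and 3.54% higher. Their median log2 fold change was -1.57, beside -0.90 for the members and -1.19 for all tested genes.

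The gene called lower was Slc9b1, a sodium-proton exchanger of the sperm tail, with 32, 9, 2 and 0 counts in sperm against 304 and 222 in testes (edgeR log2 fold change -3.95, SE 0.95, adjusted p = 0.0014). Settings that did not call Slc9b1 included TMM factors, no filter and leaving out sperm replicate 2. In sperm replicate 1, which was not compared, its level of 755 CPM lay between the 942 and 706 CPM of the testes samples. The gene called higher was Tssk6, a testis-specific serine kinase needed for sperm-egg fusion, with 7, 30, 79 and 27 counts in sperm against 24 and 29 in testes (3.62, SE 0.83, edgeR adjusted p = 0.00065). For Tssk6 the settings without a call included TMM factors, no filter, leaving out sperm replicate 2, DESeq2 and limma. Its level was 165, 299.9, 2357 and 497 CPM in sperm and 74.4 and 92.3 CPM in testes, so every sperm sample was above testes. Replicate 3, with the high Star count and epididymal marker sum, was the highest.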

How the data were processed

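RNA was measured in 4 sperm and 2 testes samples, grouped and numbered by their titles. The authors removed adaptors and poor reads before mapping; the methods name SOAPaligner/SOAP2 and the submitters' processing notes name HISAT and mm10. For each transcript, the tables as deposited by the authors hold an estimated count without any depth scaling, an FPKM value (fragments scaled for length and mapped fragments) and the transcript length. The counting program and its use of strand are not given in the sources used here.

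RefSeq (NM_) rows were summed per gene symbol, rows absent from a table were taken as 0, and the sums were rounded for edgeR 4.0.16 (R 4.3.3). The library size was the RefSeq total of the sample, without TMM factors. Each SE given with an edgeR fold was derived as the absolute log2 fold change over the square root of the test's F statistic. Genes needed 10 summed counts in the 5 samples compared. Alternatives used DESeq2 1.42.0, limma 3.58.1 on log2(FPKM + 1 or 0.1), other scales, filters and samples. The edgeR step was tested on simulated data. Positions came from RefSeq GRCm38.p6 through accessions, which matched for 37 of 37 member transcripts.

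The members, the 5 pathway lists and the marker lists were chosen with earlier results of these data known. All members could be named, with values in every sample for called members, the CatSper genes and the 10 members with the most counts in sperm replicates 2 to 4; per-sample values of other members were given after they had been seen. Of the pathway lists only called genes were named. Replicates differed by a chi-square per degree of freedom of 4.93 to 12.5 over genes with 20 or more counts, so none were merged. Intervals are Wilson 95% intervals and, like the floor of 3 counts, cover counting error only. Labels name no batch.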

Additional observations from a re-analysis of the deposited data

Results flagged for a closer look

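In 2 of the 19 measures examined, 1 of the 4 sperm samples was flagged by Dixon's test. In both, the other sperm samples were at 0%. That pattern gives the test its highest ratio whatever the remaining value is, so these flags cannot tell an outlier from a stray count. The share of RefSeq counts in Na+ and Ca2+ pump genes was 0.0009997% in sperm replicate 2, from 1 count of Atp1a4, and 0% in the others. The share in phosphodiesterase genes was 0.003999% in sperm replicate 2, from 4 counts of Pde10a, and 0% in the others.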

How the results depend on the processing

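Of all genes, 23 higher and 90 lower were called with TMM factors, and 15 and 4 without a filter. DESeq2 called 880 of 4180 lower, and edgeR with all 4 sperm samples 1214 of 6949. By limma 1529 and 1792 of 6828 were lower with a pseudocount of 1 and 0.1. Members called lower numbered 0 with TMM factors and without a filter, and 3 of 14 with DESeq2. They numbered 7 of 25 with all 4 sperm samples and 7 and 9 of 25 by limma. In these settings no member was called higher. With TMM factors 1 member transcript was called lower. Other pathway genes called higher numbered 0 with TMM factors, DESeq2, no filter and limma. Those called lower numbered 0 with TMM factors and no filter, and 2 with the total of all transcripts and with filterByExpr. They numbered 8 of 48 with all 4 sperm samples, 11 with DESeq2 and 12 of 48 by limma at either pseudocount.

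The replicate block, fitted to all 6 samples with the number in the titles as a term, called 163 genes higher and 103 lower, and 0 members and 0 other pathway genes in either direction. No pairing by number was seen: deviations of same-numbered samples correlated at -0.01 and -0.05 over 6904 genes. The deviations of the testes samples mirror each other and sperm counts were low, so this check cannot exclude pairing. Under the block Hvcn1 was at -1.83 (adjusted p = 0.0727), Pkd2 at -0.33 and Camk4 at 0.74.

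Leaving out 1 replicate at a time called 60 to 606 genes higher and 49 to 698 lower, 0 to 1 member higher and 0 to 2 lower, and 0 to 4 other pathway genes higher and 0 to 9 lower. The most were called without sperm replicate 3, the shallowest sample, where the member called higher was Catsper2. An arm left with 1 sample was assumed to vary like the other. The direction turned in at most 4 settings for each of 8 members that were not called. Leaving out a replicate moved the log2 fold change from -5.23 to 0.11 for Catsperd, -5.31 to 0.029 for Adcy10, -4.57 to 0.40 for Prkaca, -0.70 to 0.37 for Prkar2a, -7.58 to 0.32 for Camk4, -0.89 to 0.17 for Ppp3cc and -1.18 to 1.46 for Ppp1cc. The lowest values of Catsperd, Adcy10, Prkaca and Camk4 came without sperm replicate 2, the only compared sperm sample with counts of them. Sperm was then at 0, so the size of those folds is not measured. Ppp1cc was at -0.018 with DESeq2 and at -0.36 and -1.33 by limma, and Pkd2 at -0.26 by limma with a pseudocount of 0.1. The cause of the turns in direction was not tested.

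The ratio of summed member shares stayed between 0.380 and 0.542 in all settings tried, and that without Hvcn1 between 0.569 and 0.858. The ratio of members detected ran from 0.230 to 0.494. With TMM factors the median log2 fold change of all genes was -1.83, with DESeq2 -2.22 and with the total of all transcripts -1.43, against -1.19 with RefSeq totals, and Ppp1cc was the member whose sign a scale changed. Few counts limit every value: over sperm replicates 2 to 4 the floor was 16.0 CPM, above the testes mean of several members.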
